A study of Homo sapiens with 27 samples.

Results

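The short hairpin RNAs (shRNAs) CPSF1 sh1 and CPSF1 sh2, which target the same mRNA and are called sh1 and sh2 below, were compared with each other in LNCaP cells, an androgen-responsive human prostate cancer line. The comparison used 6 of the 27 RNA-seq libraries of the study: LNCaP CPSF1 sh1 replicates 1 to 3 and LNCaP CPSF1 sh2 replicates 1 to 3. The 3 LNCaP libraries with a non-silencing hairpin (CTRL sh) served only to tell which hairpin had moved a gene. All 9 cultures were infected with a pGIPZ lentivirus, went through 2 rounds of selection in 2 µg/mL puromycin, and were grown for 72 h from 500000 cells per well in RPMI medium with 10% FBS, with no hormone or drug. Each hairpin is represented by infected, selected cells of 1 line, described as 3 biological replicates. Whether the replicates stem from separate infections is not stated, so p-values measure the spread between these cultures, and features of a hairpin and of its infected pool cannot be told apart.

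CPSF1 is the largest subunit of the cleavage and polyadenylation specificity factor, the complex that recognizes the AAUAAA signal near the end of a transcript and directs cleavage and poly(A) tail addition. Where cleavage fails, RNA polymerase II can run on past the end of the gene. A pair of independent hairpins is used so that changes shared by both can be assigned to loss of the target. Hairpins can also silence other mRNAs through the seed of their guide strand, and double-stranded RNA can be detected by the innate immune sensors of a cell. The question addressed here is in which genes and functions the 2 hairpins differed.

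The 9 LNCaP libraries held 8515624 to 13567312 counted fragments. All 17 luminal prostate markers were present. Of the markers of other cell types, 5 of 8 basal, 7 of 10 fibroblast, 4 of 6 endothelial and 8 of 10 blood cell genes were below 1 CPM (counts scaled to the size of the library) in all 9 libraries, among them the defining markers TP63, DCN, CDH5 and PTPRC, at or near 0. The summed blood cell level was 3.16 to 3.85 CPM with CTRL sh, 11.3 to 14.3 with CPSF1 sh1 and 15.4 to 19.8 with CPSF1 sh2, nearly all of it CD68, a macrophage marker that is also a lysosomal protein, which was lower with CPSF1 sh1 (log2 -0.52). The summed basal level was 2.6 to 3.16, 5.94 to 8.27 and 7.78 to 8.41 CPM in the same order, most of it KRT14, which was not called between the hairpins (-0.42). The fibroblast sum was 27.7 to 32.5, 20.4 to 20.9 and 19.3 to 22.1 CPM, most of it COL1A1, and the endothelial sum 22.6 to 28.4, 11.5 to 13.4 and 10.8 to 12.7 CPM, most of it VWF. Neither of these genes was called between the hairpins (-0.05 and 0.16). The part of such cells in the results was not tested. One library stood apart. Among 28 genes that were above 50 CPM in every library of 22Rv1, another prostate cancer line of the study, and had a median under 0.5 CPM in LNCaP, all 28 had their highest LNCaP value in LNCaP CPSF1 sh1 replicate 3. The summed level of these genes in that library was 6.91% of their level in 22Rv1, against 0.111% to 0.242% in the other 8 LNCaP libraries. RGS2, for example, was at 0.241, 0.0907 and 38.9 CPM in CPSF1 sh1 replicates 1 to 3, and at a mean of 443 CPM in 22Rv1. The single-gene shares ran from 4.44% to 8.78%. List counts are therefore also given from a fit without that library, and calls of named genes that were lost without it are stated. The cause of this signal was not tested.

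CPSF1 itself was reduced by both hairpins. In the libraries with CTRL sh it was at 150.3, 149.7 and 151.7 CPM. With CPSF1 sh1 it was at 108.3, 94.4 and 100.3 CPM, and with CPSF1 sh2 at 98.2, 89.6 and 86.2 CPM. All libraries of both hairpins lay below all CTRL sh libraries, at 66.8% and 60.6% of the CTRL sh level, while the hairpins overlapped each other. The log2 difference of CPSF1 sh1 minus CPSF1 sh2 was 0.14 (SE 0.053, 95% interval 0.032 to 0.252), with an unadjusted p of 0.0141 and an adjusted p of 0.0773 in edgeR's quasi-likelihood test. It was not called. It passed the threshold of 0.05 with the replicate number as a block (0.14, adjusted p = 0.0276), without CPSF1 sh1 replicate 2 (0.19, adjusted p = 0.0373) and without CPSF1 sh2 replicate 1 (0.19, adjusted p = 0.0171). Messenger RNA level was the only measure of knockdown available in these files.

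Most differences between the hairpins were small. Of 11096 genes above 2 CPM in all 9 libraries, 1639 (14.8%) differed between sh1 and sh2 at an adjusted p below 0.05 in edgeR's quasi-likelihood test. sh1 was higher in 914 (8.24%) and lower in 725 (6.53%). The median size of the called differences was 0.23 on the log2 scale, and 13 genes were more than 2-fold higher and 2 more than 2-fold lower (9 and 5 without CPSF1 sh1 replicate 3). Without CPSF1 sh2 replicate 2 these counts were 8 and 1, and without CPSF1 sh2 replicate 1 the lower count was 4. Genes of low level added to the counts with all libraries. With edgeR's own, wider filter 60 were more than 2-fold higher and 25 more than 2-fold lower (36 and 32 without CPSF1 sh1 replicate 3), and with no filter 185 and 33. Among the called genes, the 3 libraries of one hairpin did not overlap the 3 of the other in 862 of the higher and 704 of the lower ones. They overlapped in 73. A call itself favours genes whose libraries separate, so these counts describe the calls and add no separate evidence. Without CPSF1 sh1 replicate 3, 1534 of 11106 genes (13.8%) were called, 1293 of them also called with all libraries, and none of those 1293 in the opposite direction. Without CPSF1 sh2 replicate 2 the counts fell to 576 higher and 473 lower. Throughout, log2 differences are sh1 minus sh2, so a positive value is a higher level with sh1.

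Either hairpin could be the one that moved a gene. Against CTRL sh, 62.6% of genes changed with sh1 and 64.6% with sh2 at the same threshold. With sh1 3466 (31.2%) rose and 3475 (31.3%) fell, and with sh2 3558 (32.1%) rose and 3611 (32.5%) fell. These contrasts share their CTRL sh libraries, and are used only to place the 1639 genes. Of these, 381 moved with both hairpins and further with sh1, and 456 moved with both and further with sh2. Another 347 moved with sh1 alone and 360 with sh2 alone, 31 went in opposite directions, and 64 differed from CTRL sh with neither. Without CPSF1 sh1 replicate 3 the same classes held 375, 350, 339, 384, 38 and 48 genes. Other libraries moved these counts further. Without CPSF1 sh2 replicate 2 the classes with both hairpins held 232 and 276 genes, the class of sh2 alone 235 and that of neither 30, and without CPSF1 sh1 replicate 2 the class with sh2 further held 277 and that of neither 42. The class of neither held 38 without CPSF1 sh2 replicate 3 and 113, 111 and 115 without CTRL sh replicates 1, 2 and 3, and that of opposite directions 20, 16 and 17 without those.

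Among genes above 2 CPM in all 9 libraries whose hairpin libraries did not overlap, IFIT2 and IFIT1 had the largest differences. Both are interferon-stimulated genes and were higher with sh1. Interferon-stimulated genes are switched on when sensors of foreign RNA or DNA, or secreted interferons, activate IRF and STAT transcription factors, and many encode proteins that bind viral RNA. Of 43 genes of the interferon list that were tested, 20 were higher with sh1 and 1, TAP2, was lower, with a median of 0.22 against 0.00 over all genes tested. Without CPSF1 sh1 replicate 3, 17 were higher and none was lower, with a median of 0.27. TAP2, a subunit of the peptide transporter for antigen presentation, also lost its call without CPSF1 sh1 replicate 2 (log2 -0.18) or CPSF1 sh2 replicate 2 (-0.14).

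Many of these genes share a promoter motif, the interferon-stimulated response element (ISRE), here searched as GAAANNGAAA on both strands from 250 bases before to 50 bases after the RefSeq start site. It was present in 23 of 33 interferon list members with a promoter sequence (69.7%) and in 3.7% of the 9221 tested genes that had one. Members called higher held it in 11 of 16 (68.8%), and members not called in 11 of 16, so the motif did not separate those that differed from those that did not. The promoter window of IFIT1 is shown because IFIT1 carries 2 matches and had one of the largest differences between the hairpins. It lies at chr10:89392503-89392532 on the plus strand of GRCh38.p14 (RefSeq), 120 to 91 bases before the start, and capitals mark the ISRE matches.
IFIT1: ttagTTTCACTTTCcccTTTCGGTTTCcct

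IFIT2 and IFIT1 encode proteins that bind viral RNA and block its translation, and lie in one gene cluster on chromosome 10 (IFIT2 at chr10:91061712-91069033, GRCh37). IFIT2 was at 17.4, 24.5 and 24.0 CPM with sh1, 2.57, 2.57 and 2.32 CPM with sh2, and 4.60, 2.76 and 3.51 CPM with CTRL sh. Only the sh1 libraries were raised, and they stood 8.85-fold above sh2 (log2 3.15, SE 0.17, adjusted p = 2.84e-10 by edgeR). IFIT1 was at 13.7, 17.6 and 17.7 CPM with sh1, 2.39, 2.28 and 2.32 CPM with sh2, and 2.91, 2.6 and 2.1 CPM with CTRL sh. Again only the sh1 libraries were raised (log2 2.82, SE 0.153). The sh2 libraries lay within the span of CTRL sh for IFIT1 and below it for IFIT2. IFI44, an interferon-induced protein, was at 16.7, 15.7 and 16.3 CPM with sh1 and between 4.86 and 6.49 CPM in the other 6 libraries (log2 1.46). These 3 genes differed from CTRL sh with sh1 alone.

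Other sensors and effectors moved with both hairpins, and not all in the same sense. ISG15, a ubiquitin-like modifier, was at 25.2, 23.5 and 22.2 CPM with CTRL sh, 48.7, 45.2 and 42.8 CPM with sh1, and 31.1, 29.5 and 25.5 CPM with sh2 (log2 0.66). It rose with both hairpins and further with sh1. DDX58, the RNA sensor RIG-I, was at 9.10, 8.21 and 8.33 CPM with CTRL sh, 11, 13.8 and 11.4 CPM with sh1, and 6.29, 6.90 and 5.89 CPM with sh2 (log2 0.93). DDX60, a helicase that acts with RIG-I, was at 13.0, 14.5 and 14.7 CPM with CTRL sh, 18.1, 18.3 and 18.1 CPM with sh1, and 7.53, 5.87 and 6.48 CPM with sh2 (log2 1.46). Both genes rose with sh1 and fell with sh2, with no overlap between any of the 3 groups.

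For some genes of immune signalling it was sh2 that had moved. IRF1, a transcription factor of the interferon response, was at 4.91, 5.31 and 6.43 CPM with sh1 and 4.51, 5.95 and 6.23 CPM with CTRL sh, but at 3.01, 2.79 and 2.16 CPM with sh2 (log2 1.07). BIRC3, an inhibitor of apoptosis and NF-kB target, was at 10.9, 9.44 and 10.9 CPM with sh1, near CTRL sh (10.5, 10.0 and 11.8 CPM), and at 3.45, 3.89 and 5.40 CPM with sh2 (log2 1.29). LGALS3BP, a secreted scavenger receptor protein, was at 41.4 to 50.6 CPM with sh1 and 28.8 to 32.7 CPM with sh2 (log2 0.58). In these 3 genes the sh2 libraries lay below the other 6. Of the 20 list members higher with sh1, 7 had moved with sh1 alone, 3 with both and further with sh1, 5 with both and further with sh2, 3 with sh2 alone, 1 in opposite directions and 1 with neither. Antigen presentation genes were among those that moved with both. B2M, the light chain of MHC class I, rose with both hairpins and further with sh1 (log2 0.20), whereas HLA-B, an MHC class I heavy chain, fell with both and further with sh2 (log2 0.32). The response was not uniform: OAS3, a sensor of double-stranded RNA, and IRF7, a transcription factor of the same pathway, had log2 differences of 0.00 and 0.01, with overlapping libraries.

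**Figure D1:**
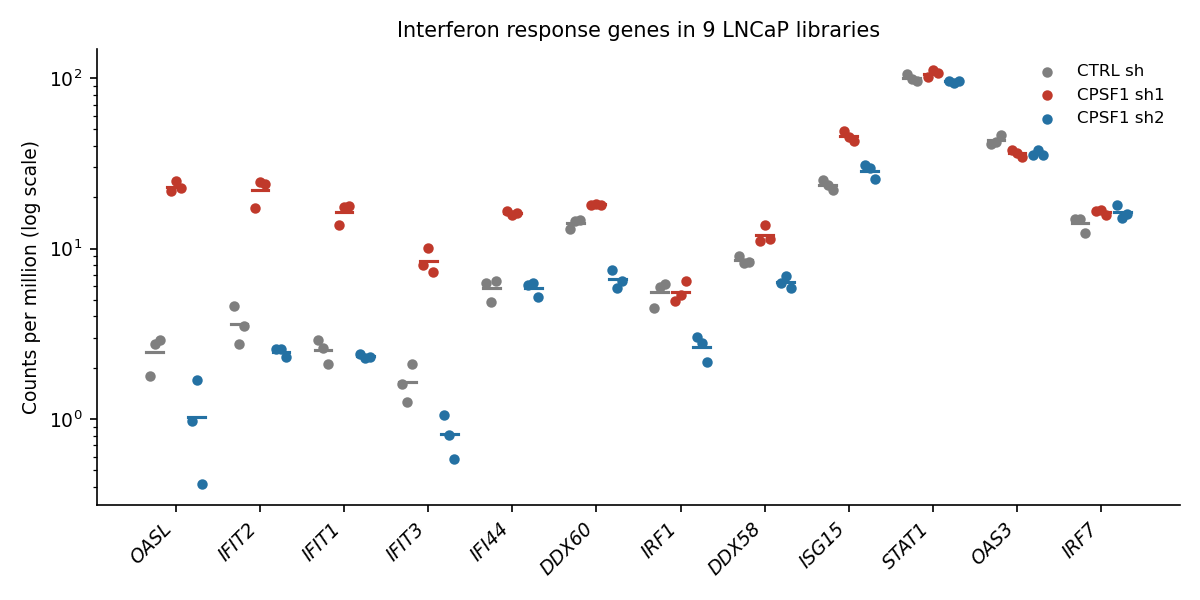
CPM (log scale) of interferon response genes in the 9 LNCaP libraries, 1 point per library and a bar at the group mean. IFIT2 and IFIT1 are raised with sh1 only, DDX60 lies above CTRL sh with sh1 and below it with sh2, and OAS3 and IRF7 overlap between the hairpins.

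Several interferon genes were too low for the filter of 2 CPM in all 9 libraries, and were tested after edgeR's own, wider filter, under which 1619 of 12873 genes (12.6%) were called. OASL, a 2'-5'-oligoadenylate synthetase-like protein, was at 21.7, 24.9 and 22.6 CPM with sh1, 0.974, 1.69 and 0.415 CPM with sh2, and 1.78, 2.76 and 2.89 CPM with CTRL sh (log2 4.44, SE 0.224). IFIT3, a partner of IFIT1, was at 8.03, 10.1 and 7.30 CPM with sh1, 1.06, 0.808 and 0.581 CPM with sh2, and 1.6, 1.26 and 2.1 CPM with CTRL sh (log2 3.37). Both rose with sh1 and fell with sh2. The antiviral enzymes RSAD2 (1.51) and OAS1 (1.08) were called in the same direction. RSAD2 was at 4.79, 5.67 and 5.06 CPM with sh1 and 1.68, 1.54 and 2.24 CPM with sh2, both above CTRL sh. The chemokine CXCL10 was at 4.19, 4.14 and 3.60 CPM with sh1 and 0 to 0.664 CPM in the other 6 libraries, and since it passed the filter through sh1 alone its test is not given. Interferon genes themselves were near the limit of detection. IFNL1 had 2, 2 and 3 raw counts and IFNB1 had 1 in each of the 3 sh1 libraries, against 0 in all sh2 and CTRL sh libraries. These 2 genes were chosen after their values were seen.

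Chaperones of the endoplasmic reticulum (ER) were higher with sh1. In the unfolded protein response, misfolded proteins in the ER activate the sensors ATF6, IRE1 and PERK, and ATF6 and XBP1 raise chaperone and folding enzyme genes. Of 28 list genes tested, 18 were higher with sh1 and none was lower at this threshold, with a median of 0.23. Without CPSF1 sh1 replicate 3, 18 were higher and 1 lower, with a median of 0.25. Of the 18, 8 had moved with sh1 alone, 5 in opposite directions, 2 with both and further with sh1, 2 with sh2 alone and 1 with both and further with sh2. Against CTRL sh the list's median was 0.22 with sh1 and -0.02 with sh2. XBP1, the transcription factor itself, was not called between the hairpins (log2 -0.07).

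HSPA5, also called BiP, the main Hsp70 chaperone of the ER, was at 1180, 1148 and 1095 CPM with sh1, 771, 703 and 703 CPM with sh2, and 843, 807 and 816 CPM with CTRL sh. It rose with sh1 and fell with sh2, and no groups overlapped (log2 0.65, SE 0.039, adjusted p = 1.04e-09 by edgeR). HSP90B1, the Hsp90 of the ER, was at 1135, 1082 and 1146 CPM with sh1, 824, 764 and 803 CPM with sh2, and 1000, 943 and 932 CPM with CTRL sh (log2 0.49). The lectin chaperone CALR (log2 0.43) and the disulfide isomerases PDIA4 (0.43) and PDIA6 (0.30) went in opposite directions in the same way. MANF, a secreted ER stress protein, was at 188, 180 and 186 CPM with sh1, and at 122 to 135 CPM in the other 6 libraries (log2 0.51). CRELD2 (0.64), DNAJC3 (0.49), SDF2L1 (0.45) and HERPUD1 (0.22), a set of ER folding and degradation factors, also moved with sh1 alone. HYOU1, an ER nucleotide exchange factor, rose with both hairpins and further with sh1 (0.24). Among cytosolic chaperones, none of 17 tested heat shock genes was higher with sh1 and 1 was lower (1 and 1 without CPSF1 sh1 replicate 3). With all libraries this was 5.88%, against 14.8% of all genes. The difference from the ER list was not tested.

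The ER stress element (ERSE, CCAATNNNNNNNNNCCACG, both strands) was present in 7 of 24 promoters of the unfolded protein response list (29.2%) and in 0.141% of the promoters of all tested genes. It was found in 6 of 15 members higher with sh1 and in 1 of 9 not called. HSPA5 and HSP90B1 are shown as the most abundant members. The HSPA5 window is chr9:125241386-125241415 on the minus strand and the HSP90B1 window chr12:103930315-103930344 on the plus strand (GRCh38.p14, RefSeq). HSP90B1 holds 2 matches, of which the one nearer the start is shown. Capitals mark the match shown, which is on the opposite strand in HSP90B1.
HSPA5: ccttcaCCAATCGGCGGCCTCCACGacggg
HSP90B1: tgggtgCGTGGTGCGGCGCGATTGGtgggt

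Genes of cholesterol synthesis were higher with sh1. This pathway builds cholesterol from acetyl-CoA and is controlled as a unit by the transcription factor SREBF2, which is held in the ER when sterols are plentiful. Of 24 list genes tested, 18 were higher with sh1 and none was lower, with a median of 0.18. Without CPSF1 sh1 replicate 3, 12 were higher and none lower, with a median of 0.17. HMGCS1, the synthase that opens the pathway, was at 151, 155 and 171 CPM with sh1 and 124, 129 and 129 CPM with sh2, the latter near CTRL sh (119 to 125 CPM, log2 0.32).

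For other genes of sterol metabolism it was sh2 that lay below CTRL sh. STARD4, a sterol carrier, was at 30.8, 34.5 and 36.1 CPM with sh1, within the span of CTRL sh (32.5 to 34.8 CPM) or close to it, and at 19.8, 22.0 and 23.6 CPM with sh2 (log2 0.64). TM7SF2, a sterol reductase, fell with both and further with sh2 (0.45). IDI1 (0.42) and FDFT1 (0.25), the isomerase and the squalene synthase of the pathway, rose with sh1 alone. Of the 18 called, 6 had moved with both and further with sh1, 5 with sh1 alone, 4 with sh2 alone and 3 with both and further with sh2. Of 16 tested genes of fatty acid synthesis 6 were higher and none was lower (5 and none without CPSF1 sh1 replicate 3), among them the desaturase SCD (0.26) and the elongase ELOVL5 (0.33). The sterol regulatory element was searched as TCACNCCAC on both strands and was found in 1 of 18 promoters of the cholesterol list (5.56%) against 1.45% of all.

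Genes of amino acid supply that respond to ATF4 were lower with sh1. ATF4 is translated when amino acids are short or the ER sensor PERK is active, and raises amino acid synthesis enzymes, transporters and tRNA ligases. Of 43 list genes tested, 25 were lower with sh1 and 2 were higher, with a median of -0.17. The lower count was 26, with a median of -0.18, without CPSF1 sh1 replicate 3. Against CTRL sh the median was -0.34 with sh1 and -0.08 with sh2. Of the 25, 12 had moved with both hairpins and further with sh1, 10 had moved with sh1 alone, and 1 each with sh2 alone, with both and further with sh2, and in opposite directions.

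PCK2, the mitochondrial phosphoenolpyruvate carboxykinase, was at 341, 326 and 329 CPM with CTRL sh, 163, 149 and 156 CPM with sh1, and 231, 220 and 216 CPM with sh2 (log2 -0.52, SE 0.04, adjusted p = 5.41e-08 by edgeR). It fell with both hairpins and further with sh1. SLC7A11, the cystine transporter, was at 168, 185 and 176 CPM with sh1 and between 235 and 262 CPM in the other 6 libraries (-0.51). ASNS, asparagine synthetase, was at 183, 173 and 177 CPM with sh1 and between 233 and 258 CPM in the other 6 (-0.43). In both genes only sh1 had moved. SLC1A5, a glutamine transporter, was at 94.9, 88.1 and 94.9 CPM with sh1 and 135, 120 and 128 CPM with sh2, both below CTRL sh (175 to 182 CPM, -0.46).

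The serine and one-carbon enzymes PHGDH (log2 -0.37), PSAT1 (-0.31), SHMT2 (-0.23) and MTHFD2 (-0.32) fell with both hairpins and further with sh1. The glycyl-tRNA and cysteinyl-tRNA ligases GARS (-0.36) and CARS (-0.34) fell with sh1 alone. CHAC1, which degrades glutathione, was also lower with sh1 (-0.57), as was STC2, a secreted glycoprotein (-0.44). TRIB3, a pseudokinase induced by ATF4, was at 106 to 112 CPM with sh1, 135 to 150 CPM with sh2 and 127 to 130 CPM with CTRL sh, and so went in opposite directions (-0.38). The 2 members that were higher with sh1 were DDIT3, the transcription factor CHOP (0.27), and ATF3, a stress transcription factor (0.24). ATF4 itself was lower with sh1 (-0.13), a call that was lost without CPSF1 sh1 replicate 2 (-0.12).

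The C/EBP-ATF response element, searched as TGATGNAA on both strands, was present in 12 of 34 promoters of this list (35.3%) and in 2.53% of all tested. It was found in 7 of 17 lower members and 4 of 15 not called. ASNS and SLC1A5 are shown as members that hold it and were lower with sh1. The ASNS window is chr7:97872458-97872487 and the SLC1A5 window chr19:46784893-46784922, both on the minus strand (GRCh38.p14, RefSeq), with the match in capitals.
ASNS: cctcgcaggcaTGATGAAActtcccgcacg
SLC1A5: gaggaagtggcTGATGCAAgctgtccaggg

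Most tested genes of mitosis, and a smaller part of those of DNA replication, were lower with sh1 than with sh2. G2/M genes encode the kinesins, kinases and centromere proteins that build the spindle, and are switched on late in the cycle by FOXM1 and the DREAM-MuvB complexes, while G1/S genes are E2F targets that replicate DNA. Of 70 G2/M genes tested, 50 were lower with sh1 and none was higher, with a median of -0.22. Without CPSF1 sh1 replicate 3 the count was 55 and the median -0.26. Of 56 G1/S genes tested, 25 were lower and none was higher, with a median of -0.15, and 29 were lower without CPSF1 sh1 replicate 3. The G1/S count depended on the libraries: it fell to 15, 13 and 16 without CPSF1 sh1 replicate 1, CPSF1 sh1 replicate 2 and CPSF1 sh2 replicate 3. Against CTRL sh the G2/M median was -0.18 with sh1 and 0.05 with sh2, and the G1/S median was 0.00 and 0.14.

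CENPF, a kinetochore protein, was at 270, 277 and 258 CPM with CTRL sh, 168, 171 and 187 CPM with sh1, and 211, 221 and 223 CPM with sh2 (log2 -0.32). It fell with both hairpins and further with sh1, as did KIF14, a mitotic kinesin (-0.32), and CCNB2, cyclin B2 (-0.26). FOXM1 was at 171, 162 and 176 CPM with sh1 and 192 to 214 CPM in the other 6 libraries (-0.28). The kinesin KIF20B (-0.36) also moved with sh1 alone. HJURP, the chaperone of the centromeric histone, was at 42.2, 47.0 and 49.6 CPM with sh1, 58.9, 55.7 and 61.4 CPM with sh2, and 44.8 to 47.2 CPM with CTRL sh (-0.34). Here only sh2 had moved, and upward. TK1, thymidine kinase, was at 148, 146 and 131 CPM with sh1, 186, 180 and 178 CPM with sh2, and 141 to 147 CPM with CTRL sh (-0.35). The helicase subunits MCM2 (-0.23) and MCM7 (-0.20) likewise rose with sh2 alone, while MCM3 (-0.23) fell with sh1 alone.

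Of the 50 lower G2/M genes, 17 had moved with sh1 alone, 14 with sh2 alone, 11 with both and further with sh1, 7 with both and further with sh2, and 1 in opposite directions. Among the 25 lower G1/S genes, 9 had moved with sh2 alone, 7 with both and further with sh2, 6 with sh1 alone, 2 with neither and 1 with both and further with sh1. In bulk RNA, fewer cells in a phase of the cycle and less mRNA per cell cannot be told apart. The cell cycle homology region (CHR, TTTGAA, both strands) was present in 41 of 59 G2/M promoters (69.5%) and in 13.1% of all tested, in 31 of 40 lower members and in 10 of 19 not called. None of the 5 motif strings contains another. The window of CCNB2, a known target of this element, is chr15:59105105-59105134 on the plus strand (GRCh38.p14, RefSeq).
CCNB2: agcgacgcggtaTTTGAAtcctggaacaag

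**Figure D2:**
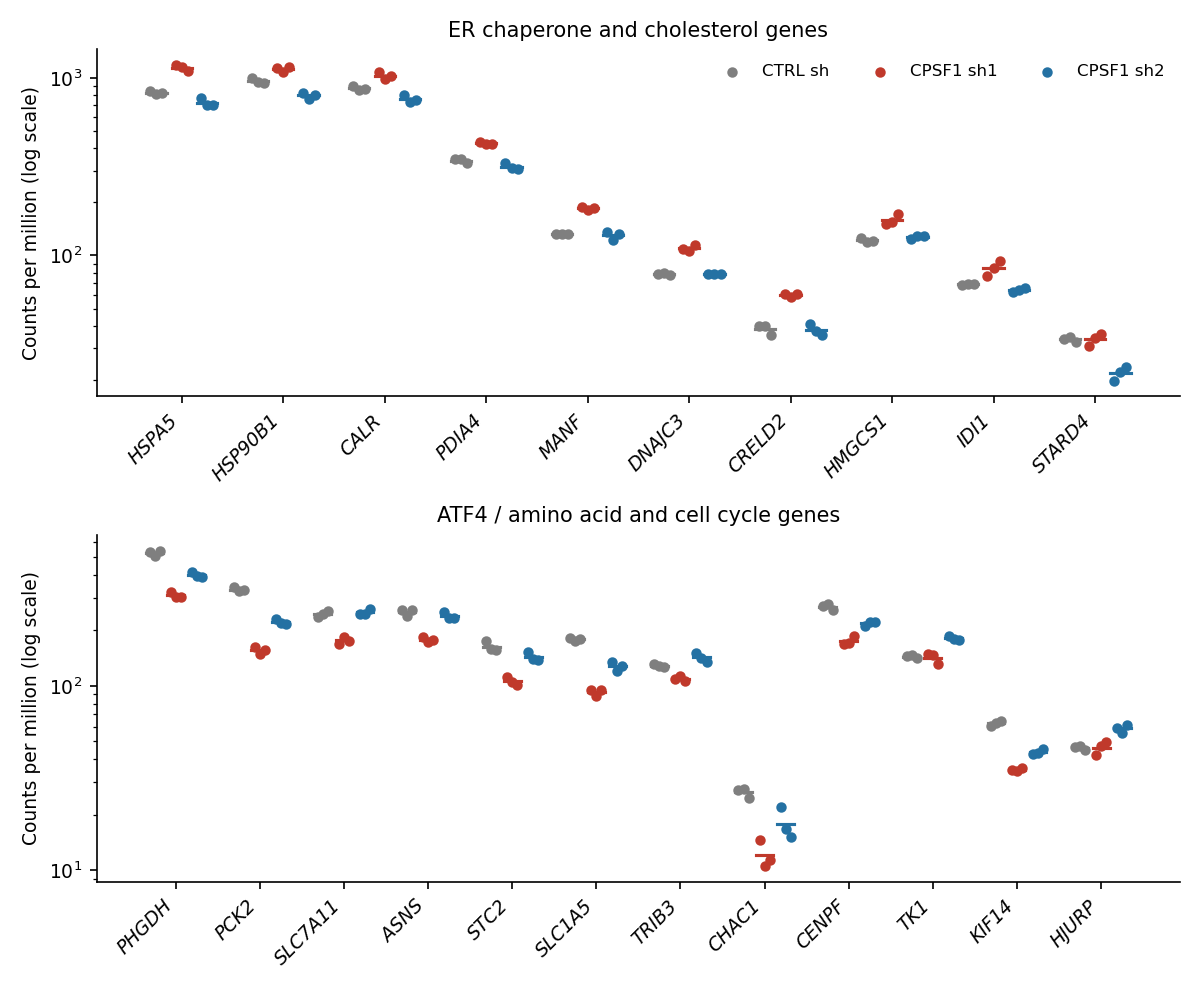
CPM (log scale) in the 9 LNCaP libraries, 1 point per library and a bar at the group mean, for ER chaperone and cholesterol genes (top) and for ATF4, amino acid and cell cycle genes (bottom). HSPA5 lies above CTRL sh with sh1 and below it with sh2, SLC7A11 and ASNS are lower with sh1 only, and TK1 and HJURP are raised with sh2 only.

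Targets of the hypoxia-inducible factors (HIF) lay below CTRL sh at the median with both hairpins, and most of those that differed between the hairpins were lower with sh1. HIF is stabilized at low oxygen and raises glycolysis, pH regulation and mitochondrial adaptation. Outside glycolysis, 7 of 22 tested targets were lower with sh1 and 1 was higher, and the median was -0.14. All 7 had moved with both hairpins and further with sh1. These counts were 6 and none without CPSF1 sh1 replicate 3, and 3 were lower without CPSF1 sh2 replicate 2. Against CTRL sh the medians were -0.97 with sh1 and -0.87 with sh2. NDUFA4L2, a HIF target of the mitochondrial respiratory chain at chr12:57628686-57634498 (GRCh37), was at 195, 200 and 178 CPM with CTRL sh, 5.87, 4.14 and 6.91 CPM with sh1, and 9.03, 23.1 and 13.2 CPM with sh2 (log2 -1.47, SE 0.268). It fell with both hairpins, which differed 2.77-fold from each other, and the sh2 libraries were widely spread.

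Of 23 glycolysis genes tested, 5 were lower with sh1 and 1 was higher (4 and 2 without CPSF1 sh1 replicate 3), 26.1% in all against 14.8% of all genes, with a median of -0.05, against medians of -0.36 and -0.39 for the 2 hairpins relative to CTRL sh. HK2, a hexokinase, was lower with sh1 (-0.29). PGK1, phosphoglycerate kinase, was at 615, 614 and 604 CPM with sh1 and 634, 705 and 694 CPM with sh2 (-0.15), a call lost without CPSF1 sh2 replicate 2 (-0.12) or replicate 3 (-0.13). GPI, glucose-6-phosphate isomerase, was at 678, 655 and 627 CPM with sh1 and 660, 665 and 633 CPM with sh2, with CTRL sh between 845 and 922 CPM. The hairpins overlapped fully (0.00, SE 0.039). PFKM, phosphofructokinase, had a difference of -0.06. ALDOA, an aldolase, had one of 0.11 with an adjusted p of 0.0571 in edgeR, and passed the threshold without CPSF1 sh1 replicate 3 (0.15) or CPSF1 sh2 replicate 1 (0.13) and with the replicate block (0.11).

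The androgen response list was split. Androgen target genes encode secreted prostate proteins and enzymes that, among other tasks, inactivate androgens. Of 32 tested, 14 were higher and 5 lower with sh1, with a median of 0.13, and 13 and 3 without CPSF1 sh1 replicate 3. KLK3, which encodes prostate-specific antigen, was at 1066, 1141 and 1105 CPM with CTRL sh, 408, 382 and 371 CPM with sh1, and 318, 335 and 344 CPM with sh2 (log2 0.22). It fell with both hairpins and further with sh2, as did STEAP2, a metalloreductase (0.24). TMPRSS2, a serine protease, overlapped between hairpins (0.01). TSC22D3, the glucocorticoid-induced leucine zipper protein GILZ and also an androgen target, was at 46.7, 50.1 and 52.6 CPM with sh1, 78.4, 83.0 and 88.3 CPM with sh2, and 79.5 to 80.7 CPM with CTRL sh (-0.74, SE 0.054). Only sh1 had moved. TRPM8, a cold-sensing channel, went in opposite directions (-0.58).

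All 5 tested genes of the UGT2B family, which conjugate androgens with glucuronic acid, were higher with sh1. UGT2B17 was at 338, 327 and 317 CPM with CTRL sh, 75.0, 92.0 and 75.0 CPM with sh1, and 47.7, 53.7 and 52.1 CPM with sh2 (log2 0.66). UGT2B11 (0.59), UGT2B15 (0.42) and UGT2B10 (0.70) also fell with both hairpins and further with sh2. UGT2B28 was at 40.7, 40.8 and 36.0 CPM with sh1 and 24.4, 26.5 and 28.6 CPM with sh2, near CTRL sh (21.6 to 25.9 CPM), and so rose with sh1 alone (0.56). These genes are close copies of each other on chromosome 4, and reads could be assigned to the wrong copy.

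Replication-dependent histone mRNAs normally end in a stem-loop without a poly(A) tail, so a poly(A)-selected library sees mainly those that are polyadenylated. Of 15 tested, 8 were higher with sh1 and none was lower, with a median of 0.35, also 8 and 0 without CPSF1 sh1 replicate 3. All 8 had risen with both hairpins and further with sh1, and the list's medians against CTRL sh were 1.11 and 0.64. HIST2H2BE, an H2B gene, was at 40.7, 38.9 and 40.2 CPM with CTRL sh, 153, 158 and 146 CPM with sh1, and 112, 117 and 111 CPM with sh2 (log2 0.43). HIST1H2BC followed at 0.56. Histone genes are near-identical copies, so assignment among them is uncertain.

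Of the 13 mitochondrially encoded mRNAs 12 were higher with sh1, by 0.18 to 0.26, all moved with sh1 alone, and MT-ND6, the one encoded on the other strand, was lower (-0.29). MT-ND5, a complex I subunit, had a difference of 0.26. Mitochondrial RNA made up 2.11% of counts with sh1, 1.83% with sh2 and 1.82% with CTRL sh. Among the lists counted with each library left out in turn, this list was the least stable. Of its members 12 were higher without CPSF1 sh1 replicate 3, but only 7 were called without CPSF1 sh1 replicate 1 and 1 without CPSF1 sh2 replicate 2. Of 76 nuclear genes of oxidative phosphorylation 9 were higher and 2 lower (8 and 1 without CPSF1 sh1 replicate 3), 14.5% in all and close to the 14.8% of all genes, with a median of 0.03.

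Immediate early genes were higher with sh1 in 8 of 23 and lower in 2, also without CPSF1 sh1 replicate 3. With all libraries this was 43.5%, against 14.8% of all genes. PHLDA1 (log2 -0.72) had the largest difference of the list and was lower with sh1. KLF6, a zinc finger factor, was at 37.4, 34.1 and 30.3 CPM with sh1 and 20.6, 21.1 and 20.8 CPM with sh2, both above CTRL sh (14.4 to 16.3 CPM, log2 0.70), and JUN (0.29) fell with both and further with sh2. Genes of epithelial adhesion were higher in 10 of 30 and lower in none (9 and none without that library), such as CLDN12, a claudin (0.34). Of 22 tested polyadenylation factors 3 were lower with sh1 and none was higher (4 and none without that library), a share of 13.6%, close to the 14.8% of all genes: PCF11 (-0.22) and RBBP6 (-0.18), and the CstF subunit CSTF3 (-0.19). PCF11, a subunit of cleavage factor II, was at 116, 113 and 113 CPM with sh1 and 129, 129 and 140 CPM with sh2, both above CTRL sh (85.2 to 87.4 CPM). None of the 13 genes that process small RNAs was called in either direction, with or without it. Cytosolic ribosomal protein genes were higher in 11 of 78 and lower in 1 (10 and none without it), 15.4% in all and close to the background of 14.8%.

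**Figure D3:**
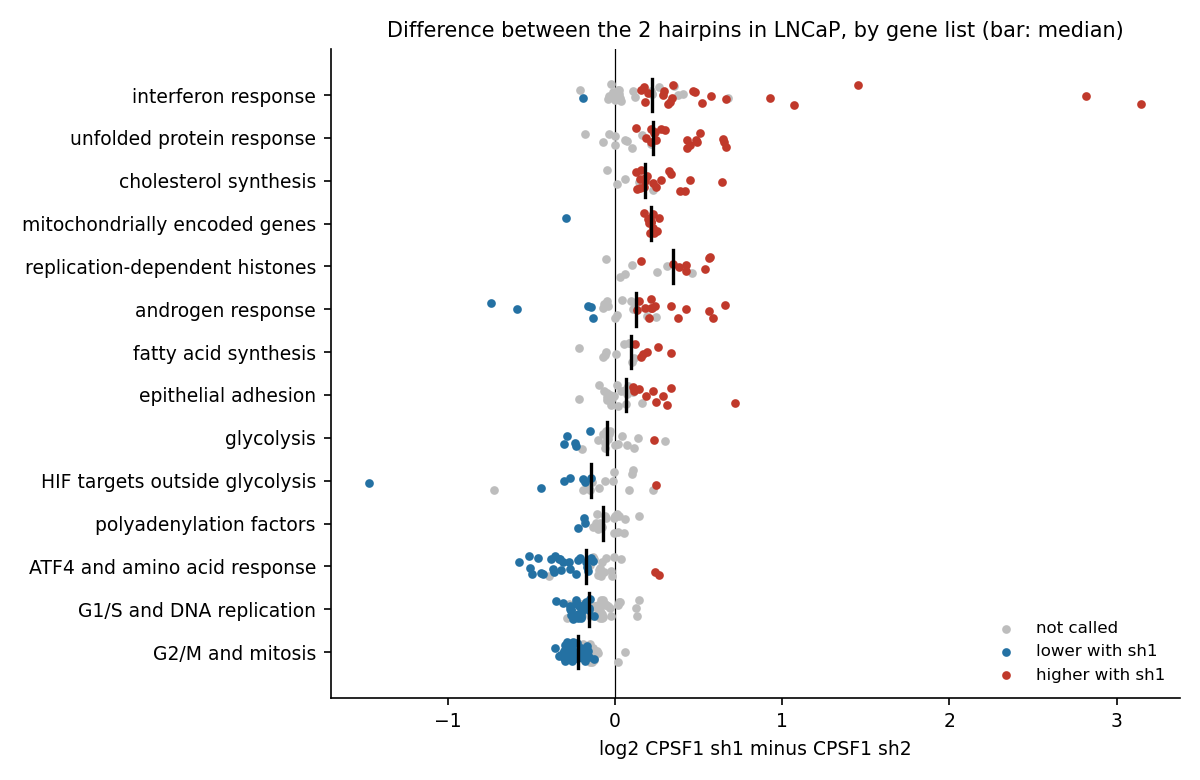
Log2 difference of sh1 minus sh2 for each tested gene of 14 lists in LNCaP, 1 point per gene, with called genes in red (higher with sh1) or blue (lower) and a bar at the median. The medians run from -0.22 for G2/M genes to 0.35 for replication-dependent histones, and the 2 points near 3 are IFIT1 and IFIT2.

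Beyond these lists, the largest differences belonged to genes of varied function. GPNMB, a lysosomal glycoprotein, was at 22.5, 27 and 26.3 CPM with sh1, 12.8, 12.7 and 11.6 CPM with sh2, and 7.79 to 9.56 CPM with CTRL sh (log2 1.03). FAXDC2, a sterol hydroxylase-like protein, also rose with both and further with sh1 (0.90). AGR2, an ER disulfide isomerase (0.89), and PTPRR, a receptor phosphatase (0.93), fell with both and further with sh2. DIO3, which inactivates thyroid hormone, rose with sh1 alone (1.18). ATP6V0C, a proton pump subunit with many processed copies in the genome, had a difference of 1.01, and SHC2, an adaptor protein, one of 0.86. Both went in opposite directions. TP53INP1, a p53-induced stress protein, was at 329, 337 and 333 CPM with sh1, 219, 223 and 225 CPM with sh2, and 258 to 270 CPM with CTRL sh (0.58, SE 0.033). It rose with one hairpin and fell with the other.

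Among the lower genes, COL12A1, a fibril-associated collagen, was at 10.4, 8.90 and 10.4 CPM with sh1 and 19.0, 22.5 and 21.0 CPM with sh2, above CTRL sh (3.57 to 5.96 CPM) with both (log2 -1.08). PRRT2, a synaptic membrane protein (-0.80), also rose with both and further with sh2, as did PHLDA1 of the immediate early list, a pleckstrin-like protein (-0.72). RCC1, the exchange factor of Ran, was at 381, 383 and 381 CPM with sh1 and 523, 541 and 527 CPM with sh2, both above CTRL sh (144 to 151 CPM, -0.48). It overlaps SNHG3 on the same strand, so reads of the one may be counted to the other. TMEM45A (-0.89), PPFIA4 (-0.78), PTRF (-0.73, a caveolar coat protein) and TNS1 (-0.71, a focal adhesion protein) fell with both and further with sh1. PRUNE2 was at 432, 492 and 464 CPM with sh1 and 594 to 715 CPM in the other 6 libraries (-0.52). FRAS1, an extracellular matrix protein, moved with sh2 alone (-0.76).

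Some calls were lost when 1 library was left out, with differences that stayed in the same direction. DMGDH (log2 -0.84), dimethylglycine dehydrogenase, lost its call without CPSF1 sh1 replicate 2 (-0.68, adjusted p = 0.0533 by edgeR), and PDZD4 (-0.83) lost it without CPSF1 sh1 replicate 2 (-0.71) or CPSF1 sh2 replicate 2 (-0.66). EVA1B (0.79) lost it without CPSF1 sh1 replicate 3 (0.61). MAGEA1, a cancer-testis antigen, was at 7.91, 7.02 and 16.2 CPM with sh1 and 5.58, 5.73 and 5.98 CPM with sh2 (0.85). It lost its call without CPSF1 sh1 replicate 3 (0.36), as did the other 3 largest of the genes that differed from CTRL sh with neither hairpin: KCNH2, a potassium channel (0.70 with all libraries, 0.44 without it), COLGALT2, a collagen galactosyltransferase (-0.67, -0.53), and NFKBIZ, an NF-kB regulator (0.59, 0.41). Those 4 calls were also lost without CPSF1 sh2 replicate 2, and with DESeq2 as the test on all libraries. The call of COLGALT2 was lost as well with edgeR's own filter (-0.66) and with no filter (-0.66).

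Genes of low level were compared as well. Of 1777 genes that edgeR's wider filter kept beyond the main one, 115 were called, 57 higher and 58 lower with sh1, where 6.98% of all genes under that filter were called higher and 5.60% lower. The higher group depended on the library that stood apart, since in 20 of the 57 CPSF1 sh1 replicate 3 was more than 2-fold above both other sh1 libraries, and 26 were called without it. Of the 58 lower genes 48 were called without it. Of these 58, 45 lay above CTRL sh with both hairpins, and 38 of the 45 were called without that library, all 45 keeping their direction. The wider filter keeps a gene that is high enough in 3 libraries, so a gene near 0 with CTRL sh can pass through one hairpin alone, and no direction is read from these counts.

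The position of the 45 genes was set against protein-coding GENCODE genes (v44, lifted to GRCh37), since CPSF1 acts at the ends of genes. A neighbour was a gene that began upstream on the same strand. One that overlapped the gene was given a distance of 0 and counted as near, as for RPL17-C18orf32 and FUT7. Of 43 that could be placed, 34 (79.1%) had such a neighbour ending within 20 kb upstream or overlapping, and 19 (44.2%) within 5 kb or overlapping. Among all genes kept only by the wider filter the share was 671 of 1548 (43.3%), among genes kept by the main filter 3525 of 10297 (34.2%), and among genes of the wider filter that lay above CTRL sh with both hairpins without a call between them 241 of 488 (49.4%). The 10 genes kept only by the wider filter, above CTRL sh with both hairpins and higher with sh1, gave 2 of 8 placed. Genes of the main filter that were lower with sh1 and rose with both hairpins, further with sh2, gave 56 of 170 (32.9%). These shares are a description: the 45 genes were picked by their values, and no test was run. The 45 include genes that the filter could keep through sh2 alone, and these were not removed. LDHC, for example, was at 0 CPM with CTRL sh, 0.479 to 0.584 with sh1 and 2.04 to 2.42 with sh2.

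ADCY10, soluble adenylyl cyclase, begins 2.5 kb after MPC2. It was at 0.469, 0.419 and 0.351 CPM with CTRL sh, 18.2, 20.1 and 17.8 CPM with sh1, and 30.3, 34.5 and 31.4 CPM with sh2 (log2 -0.78). PYGM, muscle glycogen phosphorylase, begins 4.6 kb after SF1 and was below 0.5 CPM with CTRL sh, at 10.9, 10.4 and 10.7 CPM with sh1 and at 16.5, 15.0 and 17.5 CPM with sh2 (-0.61). In both genes the 2 hairpins were above CTRL sh in every library, and sh2 was the higher. Further cases were LAG3 after PTMS, an immune checkpoint receptor (-0.84), AVIL after CTDSP2 (-0.67) and BST1 after FAM200B (-0.90). Each of these 5 genes was above 4 CPM in all libraries of both hairpins.

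**Figure D4:**
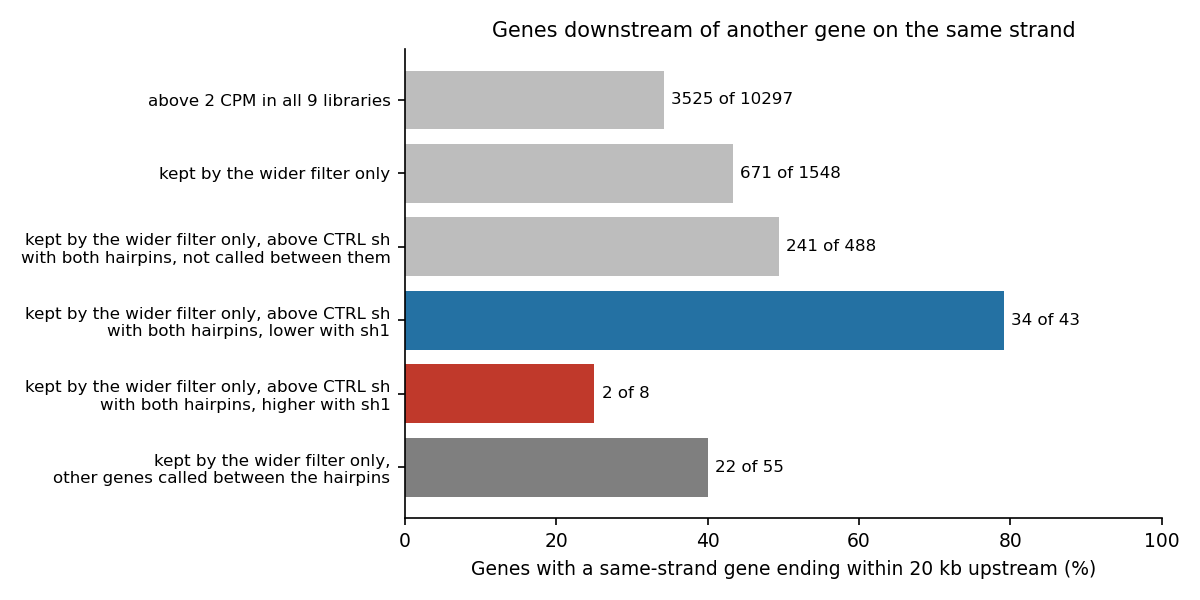
Percent of genes with a protein-coding gene that begins upstream on the same strand and ends within 20 kb or overlaps, for 6 sets of genes. Counts are beside each bar. Genes kept by the wider filter only that lay above CTRL sh with both hairpins and were lower with sh1 have the highest share (34 of 43), and the sets were chosen by their values, so the bars are a description.

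The same hairpins were used in LNCaP95, an androgen-independent derivative of LNCaP, and in 22Rv1, which allows the difference between hairpins to be compared across lines. LNCaP95 was selected in 1 µg/mL puromycin and kept in medium without phenol red, whereas 22Rv1 was handled as LNCaP, so line and culture conditions cannot be told apart for LNCaP95. In a fit of all 27 libraries, 1285 of 10317 genes (12.5%) differed between the hairpins in LNCaP, 3613 in LNCaP95 (35.0%, with 18.2% higher with sh1 and 16.8% lower) and 1623 in 22Rv1 (15.7%, with 7.71% and 8.03%). Of the genes called in LNCaP, 400 were called in the same direction in LNCaP95 (31.1% of the LNCaP calls and 11.1% of those in LNCaP95) and 236 in the opposite one. With 22Rv1, 268 shared their direction (20.9% and 16.5%) and 112 were opposite. The difference itself differed between LNCaP and LNCaP95 in 2065 genes (20%, with 9.75% higher and 10.3% lower in LNCaP), and between LNCaP and 22Rv1 in 783 (7.59%, with 3.59% higher and 4% lower), by the interaction term in edgeR.

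Cholesterol genes had a median above 0 in all 3 lines. They were higher with sh1 in 18 of 24 in LNCaP, 12 in LNCaP95 and 20 in 22Rv1 and lower in none, 3 and none, with medians of 0.18, 0.13 and 0.25. The LNCaP count depended on 1 library: without LNCaP CPSF1 sh1 replicate 3, 10 of 24 were higher and none was lower in the same fit. The interaction was called in 6 against LNCaP95 and 4 against 22Rv1. HMGCS1 differed by 0.32, 0.25 and 0.30 in the 3 lines, and STARD4 by 0.64, 0.87 and 0.49, neither with a called interaction. An interaction that is not called does not show that the lines responded alike.

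ER chaperones, amino acid genes and mitotic genes differed between hairpins in a way that changed with the line. Unfolded protein response genes had medians of 0.22, -0.02 and 0.00, and the LNCaP difference was higher in 15 of 28 than in LNCaP95 and in 13 than in 22Rv1 (13 and 12 without LNCaP CPSF1 sh1 replicate 3). With all libraries it was lower in 1 than in LNCaP95 and in none than in 22Rv1. HSPA5 differed by 0.65, 0.15 and 0.11 in the order LNCaP, LNCaP95, 22Rv1, and MANF by 0.51, -0.05 and -0.04. Called ATF4 and amino acid genes were mostly lower with sh1 in LNCaP and mostly higher with it in the other lines. Of 43 tested, 25 were lower in LNCaP, none in LNCaP95 and 4 in 22Rv1, whereas 2, 31 and 15 were higher. The rest were not called. The interaction was called in the lower direction in 35 against LNCaP95 and 23 against 22Rv1 (33 and 24 without LNCaP CPSF1 sh1 replicate 3). With all libraries it was called in the higher direction in none against LNCaP95 and in 1 against 22Rv1. ASNS differed by -0.43, 0.43 and 0.22, PCK2 by -0.52, 0.58 and 0.53, and CHAC1 by -0.57, 0.63 and 0.70.

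Of 70 G2/M genes 50 were lower with sh1 in LNCaP, 2 in LNCaP95 and none in 22Rv1, whereas none was higher in LNCaP, 24 in LNCaP95 and 15 in 22Rv1, with medians of -0.22, 0.09 and 0.07, and the interaction was called in 50 and 43 (52 and 46 without that library), all in the lower direction. CENPF differed by -0.32, 0.17 and -0.05. G1/S genes went another way: of 56, 24 were lower with sh1 in LNCaP, 32 in LNCaP95 and 1 in 22Rv1, whereas none, 2 and 13 were higher, with medians of -0.15, -0.18 and 0.07. Their interaction was called in 5 genes higher and 3 lower in LNCaP than in LNCaP95, and in 17 lower than in 22Rv1. Without LNCaP CPSF1 sh1 replicate 3 these counts were 4 higher, 5 lower and 25 lower, so the balance against LNCaP95 depended on that library. Of all genes, 9.75% were called higher and 10.3% lower against LNCaP95. Of 20 HIF targets, 1 was higher and 6 were lower with sh1 in LNCaP, 19 and none in LNCaP95, and 5 and none in 22Rv1. The medians were -0.15, 0.57 and 0.07 in the same order. The interaction was called in 15 against LNCaP95 and in 5 against 22Rv1, all in the lower direction. NDUFA4L2 differed by -1.47, 0.94 and 0.93. TSC22D3 differed by -0.74, 0.51 and 0.38. For 12 of the 13 mitochondrially encoded mRNAs the LNCaP difference was higher than that of LNCaP95, and for 1 than that of 22Rv1. ISG15 differed by 0.66 in LNCaP and by -0.04 and 0.17 in LNCaP95 and 22Rv1. Of 27 interferon list genes that passed the filter in all lines, the LNCaP difference was higher in 8 than in LNCaP95 and in 5 than in 22Rv1, and lower in 1 each. With edgeR's wider filter on all 27 libraries, 15.4% of 14441 genes had a called interaction against LNCaP95 (8.11% higher in LNCaP and 7.24% lower) and 6.29% against 22Rv1 (3.81% and 2.48%). This filter also keeps genes that are high in 22Rv1 alone, where LNCaP CPSF1 sh1 replicate 3 stood apart. Under it 1150 genes were higher and 576 lower with sh1 in LNCaP, against 686 and 599 under the main filter. Counts without that library are not given for it. With the wider filter the difference of IFIT2 was larger in LNCaP than in LNCaP95 by 2.69 on the log2 scale and that of IFIT1 by 2.41.

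**Figure D5:**
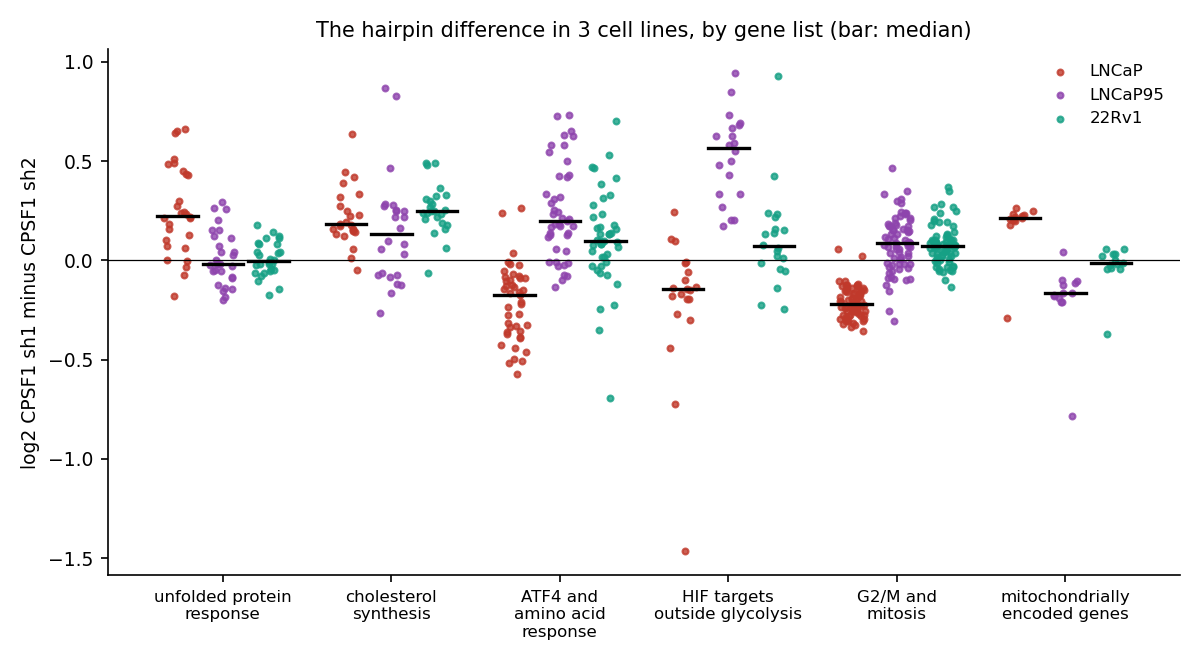
Log2 difference of sh1 minus sh2 in LNCaP, LNCaP95 and 22Rv1 for the genes of 6 lists in the fit of all 27 libraries, 1 point per gene and a bar at the median. Cholesterol genes lie above 0 at the median in all 3 lines (0.18, 0.13 and 0.25), whereas ATF4 and G2/M medians are below 0 in LNCaP only.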

How the data were processed

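RNA-seq (TruSeq Stranded mRNA, paired-end) was deposited as raw counts per gene symbol: the authors aligned reads to GRCh37 with HISAT2 2.1.0 and made the counts with featureCounts (Subread 2.0.3 per the labels) on the reverse strand of Ensembl exons, with replicates kept apart. Exon counting leaves out reads downstream of annotated ends.

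Of 20268 genes, those above 2 CPM (counts scaled by the library's total) in all 9 LNCaP libraries were kept, leaving 9172 untested. After TMM normalization, edgeR 4.0.16 (R 4.3.3) fitted 3 groups by the quasi-likelihood method in its earlier form, with Benjamini-Hochberg adjustment over all genes tested and a threshold of 0.05. Differences between lines were interaction terms in a fit of 9 groups, on genes above 2 CPM in all 27 libraries. The biological coefficient of variation was 3.25%. Replicates differed by more than sampling noise (chi-square per degree of freedom 1.56 to 3.43). A gene was placed by its calls against CTRL sh, as moved by one hairpin, both, opposite or neither.

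Named were CPSF1, the 12 largest non-overlapping differences in each direction, the 6 largest above a mean of 100 CPM, the 4 largest of each class, list members, and 5 genes the study examined (GPI, PFKM, ALDOA, PGK1, UGT2B17). Some genes that meet this rule are not reported here. The members and lists were chosen with earlier results of these data known, so a list's count is a description beside the share of all genes called. Of 44 lists, 5 were cell type markers. Promoters were matched by symbol to RefSeq (GRCh38.p14). The scripts were tested on simulated data. Alternatives were DESeq2 1.42.0, other normalizations and filters, a replicate block, removal of a length trend, and leaving out libraries. The fits without CPSF1 sh1 replicate 3 under other filters, without mitochondrial genes, and the positions of neighbouring genes were added after seeing the data. The hairpin sequences were not used here.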

Additional observations from a re-analysis of the deposited data

Results flagged for a closer look

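The difference between the hairpins was compared across cell lines by the interaction term of edgeR's quasi-likelihood test. Values below are the LNCaP difference minus that of the other line, in log2 units, each past an adjusted p of 0.05. The term was called in 2065 of 10317 genes against LNCaP95 and in 783 against 22Rv1. Several genes were of opposite sign in the lines. No explanation was tested.

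Against LNCaP95 the stress and immune genes IRF1 (1.33), DDX58 (0.85), HSPA5 (0.50), MANF (0.56) and HSP90B1 (0.45) had a higher value in LNCaP, as did GPNMB (1.77), PTPRR (0.91) and UGT2B11 (0.50). Lower in LNCaP were the amino acid and stress response genes PCK2 (-1.10), SLC7A11 (-0.72), SLC1A5 (-0.70) and STC2 (-0.78), the HIF target NDUFA4L2 (-2.41), and TMEM45A (-1.49), PDZD4 (-1.02), PPFIA4 (-1.51), TSC22D3 (-1.25), PTRF (-0.70), TNS1 (-1.24), PRUNE2 (-0.52) and RCC1 (-0.32).

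Against 22Rv1 IRF1 (1.08), GPNMB (1.03), DDX58 (0.98), HSPA5 (0.54), MANF (0.55), HSP90B1 (0.46), UGT2B11 (0.98) and TP53INP1 (0.57) were higher in LNCaP. Lower were NDUFA4L2 (-2.39), TMEM45A (-1.24), PRRT2 (-0.90), PPFIA4 (-1.12), TSC22D3 (-1.11), PTRF (-0.88), TNS1 (-0.76), PRUNE2 (-0.57), PCK2 (-1.05), SLC7A11 (-0.60) and SLC1A5 (-0.85). The call for IRF1 was lost without LNCaP CPSF1 sh2 replicate 3 (0.95), and those for PPFIA4 and TNS1 were each lost under 4 alternatives.

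Genes below 2 CPM in any of the 27 libraries were compared after edgeR's own filter. Against LNCaP95 these were IFIT2 (2.69), IFIT1 (2.41), DIO3 (1.44), BIRC3 (1.41), DDX60 (1.34) and UGT2B17 (0.41), higher in LNCaP, and DMGDH (-1.34), lower. Against 22Rv1 they were BIRC3 (1.37) and FRAS1 (-0.73). IFI44 is not compared with LNCaP95, where it had 0 counts in every library of CPSF1 sh1.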

How the results depend on the processing

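No call of a named gene reversed its direction under the alternatives that were run, but counts moved. The balance of the interaction calls did not hold. Against 22Rv1, 370 were higher and 413 lower in LNCaP, and 550 and 358 with edgeR's own filter. Against LNCaP95, 1006 were higher and 1059 lower, and 1171 and 1046 with that filter. With DESeq2, 600 genes were higher and 461 lower with sh1, 3 mitochondrially encoded and 16 G1/S genes were called, 250 and 268 genes had moved with both hairpins (further with sh1, further with sh2), 224 with sh1 alone and 17 in opposite directions. When a difference above 2-fold was also required, 13 genes were higher and 2 lower, with 4 interferon genes and 1 HIF target, and 0 genes of the unfolded protein, cholesterol, mitochondrial, androgen, histone, ATF4, G2/M and G1/S lists. The classes then held 2 and 2 genes with both hairpins, 6 with sh1 alone, 2 with sh2 alone, 2 in opposite directions and 1 with neither. Above 10 CPM in all libraries, 12 interferon and 4 histone genes were called, because fewer were tested. With no filter the class of neither held 107.

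Leaving out 1 library at a time gave 576 to 865 genes higher and 473 to 704 lower. Called list members ranged over 15 to 20 (interferon), 15 to 18 (unfolded protein), 12 to 18 (cholesterol), 1 to 12 (mitochondrial), 13 to 16 (androgen), 6 to 8 (histones), 23 to 26 (ATF4), 37 to 55 (G2/M), 13 to 29 (G1/S) and 3 to 8 (HIF). The classes ranged over 232 to 375 and 276 to 415 (both hairpins), 248 to 350 (sh1 alone), 235 to 384 (sh2 alone), 16 to 38 (opposite) and 30 to 115 (neither). CPSF1 ranged over 0.093 to 0.19 between the hairpins, -0.63 to -0.54 for sh1 and -0.78 to -0.69 for sh2 against CTRL sh. Interactions ranged over 1705 to 1949 against LNCaP95 and 613 to 770 against 22Rv1. The causes of these shifts were not tested.

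The replicate numbers did not pair the samples by the rule used, since deviations of same-numbered sh1 and sh2 libraries correlated at 0.258, 0.0261 and 0.196. Not every library correlated best with its own number. With the replicate block 1197 genes were higher and 967 lower with sh1, 47 genes moved in opposite directions and CPSF1 was called between the hairpins (0.14). The median of all genes was 0.000217, and of the scalings library size alone moved it furthest, to -0.0139. Genes in the lowest quartile of exon length were called higher in 276 and lower in 129, and removing a length trend changed no count of the lists by more than 1.5 times. Depth limits the precision of genes near 2 CPM.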
